A study of Mus musculus with 24 samples.

Results

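The genes described here are 10 integrin subunit genes of mouse skeletal muscle, out of 54752 Ensembl gene IDs in the count tables: the alpha subunits Itga1, Itga3, Itga4, Itga5, Itga6, Itga7, Itga9 and Itgav and the beta subunits Itgb1 and Itgb5. They were selected by name, because Numb is a known adaptor of integrin endocytosis and because Itga4 had been seen to fall with tamoxifen in 1 pair of groups of these same data, the females with the Cre transgene. The values of the 10 genes in that pair are therefore given as a description, with no p-value, and nothing is supported by them. All 10 genes passed the filter on low counts in each comparison.

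RNA sequencing was done on total RNA of the gastrocnemius, a calf muscle, in 24 libraries that fall into 8 groups of 3. Every animal carried floxed alleles of Numb and NumbL, written Numb(f/f)/NumbL(f/f). In 4 groups the genotype also held HSA-MCM, a tamoxifen-activated Cre recombinase whose promoter, that of human skeletal actin, drives it in the muscle fibres and not in other muscle-resident cells. Females and males of each genotype received tamoxifen or vehicle, giving transgene females, flox females, transgene males and flox males, each with a vehicle and a tamoxifen group. The sources used here give no ages, tamoxifen dose or interval between dosing and tissue collection. The 3 transgene males titled as vehicle controls are entered under tamoxifen in the treatment field, and they were grouped by title. The 6 flox males are titled as wild type, although their genotype field gives the floxed alleles. Nothing in the labels states that each library is a separate animal, so p-values measure only the spread between these libraries.

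Total counts ran from 21516819 to 43014516 per library. Summed over 8 muscle fibre markers, including Acta1, the level was 142320 to 279180 CPM, which are counts scaled to a common library size, in every library. Counts for the floxed genes cover all of their exons: Numb lay at 15.3 to 25.3 CPM and Numbl at 2.67 to 6.49 CPM, and Numb passed the test in no comparison (adjusted p = 0.0853 to 1, edgeR quasi-likelihood with Benjamini-Hochberg adjustment). The transgene and flox females were deposited in 2 tables, so a difference between female genotypes cannot be told apart from one between tables, and the same holds for sex.

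Integrins are cell surface receptors made of an alpha and a beta subunit. They bind extracellular matrix proteins or counter-receptors on other cells outside and link to the actin cytoskeleton inside, and their surface level depends on endocytosis and recycling, steps in which Numb can act as an adaptor. In adult muscle the laminin receptor made of the alpha 7 and beta 1 subunits joins the fibre membrane to the basement membrane, while the alpha 4 subunit, a receptor chain for VCAM-1 and fibronectin, is best known from leukocytes and from myogenic cells.

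The largest fitted log2 change with tamoxifen among the 10 genes was that of Itga4 in both female pairs and in transgene males, and that of Itga9 in flox males. Itga4 (ENSMUSG00000027009) lies on the plus strand at chr2:79255426-79333123 of GRCm38 and has 27 exon blocks. Itga9 (ENSMUSG00000039115), whose product binds tenascin-C, osteopontin and VCAM-1, lies on the plus strand at chr9:118606690-118901003. RefSeq promoter windows (GRCm38.p6) were found for 8 of the 10 genes, and those of these 2 genes are shown because the results turn on them. Each gives the 250 bases before the RefSeq start, 5′ to 3′ on the plus strand, at chr2:79255176-79255425 for Itga4 and chr9:118711442-118711691 for Itga9. The Itga9 window lies inside the annotated gene, before a RefSeq start that lies downstream of the annotated gene start. Capitals mark matches to the E-box CANNTG and the GC box GGGCGG, searched on both strands.
Itga4: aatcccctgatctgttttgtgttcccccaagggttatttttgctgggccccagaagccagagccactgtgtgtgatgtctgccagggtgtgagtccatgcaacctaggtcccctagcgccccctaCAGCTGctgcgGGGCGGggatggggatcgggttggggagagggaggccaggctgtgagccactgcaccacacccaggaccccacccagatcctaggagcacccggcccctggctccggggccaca
Itga9: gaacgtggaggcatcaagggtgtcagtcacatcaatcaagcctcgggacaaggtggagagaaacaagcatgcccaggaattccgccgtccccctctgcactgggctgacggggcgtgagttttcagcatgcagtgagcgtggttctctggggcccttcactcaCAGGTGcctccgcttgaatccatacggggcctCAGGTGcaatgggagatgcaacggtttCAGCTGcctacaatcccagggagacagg
The Itga4 window is 64.0% G and C and holds 1 E-box, 125 bases before the start, and 1 GC box, 114 bases before it. In the Itga9 window, 58.4% G and C, there are 3 E-boxes, at 87, 55 and 28 bases before the start, and no GC box. Neither window holds the oestrogen response core GGTCA or the clock E-box CACGTG. Over 32851 RefSeq windows of this length, 66.22% held an E-box, 32.74% a GC box, 35.24% the oestrogen response core and 6.02% the clock E-box. The clock E-box is itself an E-box. These matches are descriptions of the letters only.

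Levels were first compared between the 10 genes per kilobase of exon (CPM per kb). Itgb1, the beta subunit that pairs with most of these alpha chains, was highest in every library, at a median of 45.0 and a range of 34.6 to 56.8 CPM per kb. Itgb5, which pairs with alpha v, was next in every library at a median of 25.4 (18.02 to 31.2), and Itga7 came after it in every library, at a median of 12.2 (9.58 to 17.0). The order of the upper 3 genes was thus the same in all 24 libraries.

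Below them, the medians of Itga6 (2.69), Itga5 (2.64) and Itgav (2.57 CPM per kb) lay closer together than their spread over libraries. Itga9 had a median of 1.65, Itga3 1.499 and Itga1 1.003 CPM per kb, with ranges that overlap. Itga4 was lowest by median, at 0.559 CPM per kb, and ranked between 8 and 10 of the 10 genes in the single libraries. Over the 8 alpha genes, Itga7 made up 42.0% to 55.9% of the summed level per kb in a library, and Itga4 0.750% to 4.72%. The alpha sum stood at 0.409 to 0.801 of the Itgb1 level.

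**Figure D1:**
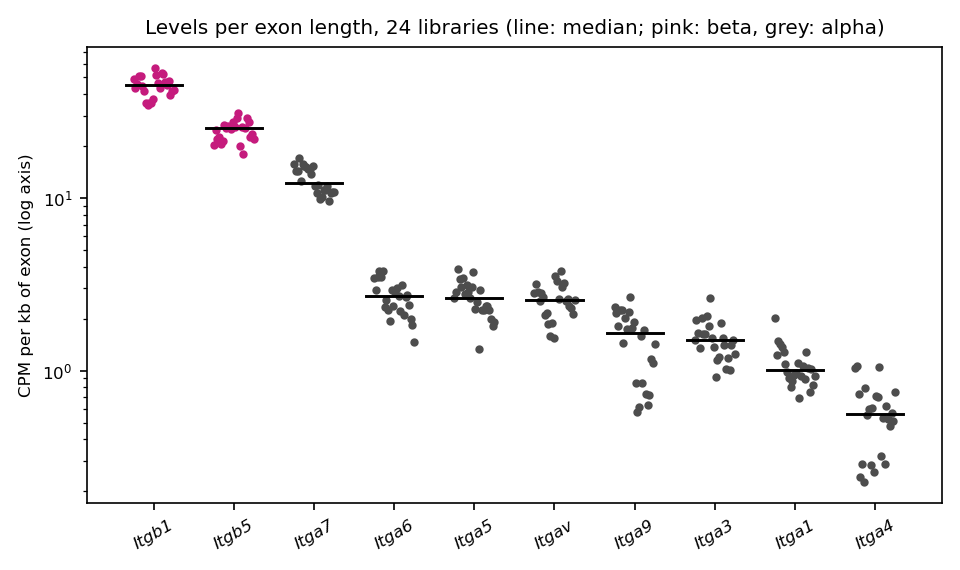
Level of each integrin subunit gene in the 24 libraries, in CPM per kilobase of exon on a log axis. Itgb1 (median 45.0), Itgb5 (25.4) and Itga7 (12.2) hold the upper 3 places in every library, and Itga4 (median 0.559) sits lowest by median.

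Counts of some of these genes carry an overlap with another gene. Itga4 shares 1124 exon bases, 8.04% of its total, with Cerkl on the opposite strand, and no source used here gives the strand setting of the counting. Cerkl had 0 to 10 counts per library, 101 in all, against 5945 for Itga4. Itga1 shares 3.68% of its exon bases with Gm49395 and Itgav 5.90% with Gm13684, and both partners had at most 14 counts in any library.

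Itga4 belongs to the receptors for cell-bound and provisional matrix ligands. In transgene females it stood at 14.5, 14.8 and 10.3 CPM with vehicle and at 3.39, 4.03 and 3.16 CPM with tamoxifen. All 3 tamoxifen libraries lay below all 3 vehicle libraries. The group means were 13.2 ± 2.53 and 3.52 ± 0.453 CPM (SD, n = 3 each), a fitted log2 change of -1.90 ± 0.17 (SE), or 0.269 of the vehicle level. This is the change by which the gene came to attention. Its share of the alpha sum per kb went from 2.43-3.56% with vehicle to 0.750-1.04% with tamoxifen.

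In the flox females, which lack the Cre transgene, Itga4 stood at 11.1, 7.69 and 8.39 CPM with vehicle and at 3.98, 8.48 and 3.61 CPM with tamoxifen. Tamoxifen libraries 1 and 3 lay below all vehicle libraries, and library 2 lay within their range. The log2 change was -0.75 ± 0.36 and did not pass (edgeR quasi-likelihood, adjusted p = 0.627). Without tamoxifen library 2 it was -1.26 ± 0.19 (adjusted p = 0.0619). That library also had the lowest level of Flrt1 among all tamoxifen libraries. Flrt1, which encodes a transmembrane protein with leucine-rich repeats, separated tamoxifen from vehicle in each of the 4 pairs of groups. In the flox females it was at 43.9, 8.56 and 54.3 CPM with tamoxifen and at 1.02, 2.23 and 1.52 CPM with vehicle. The part of this library's difference in the result was not tested beyond leaving it out.

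In transgene males Itga4 stood at 9.96, 9.87 and 14.6 CPM with vehicle and at 4.496, 7.40 and 3.995 CPM with tamoxifen. The groups did not overlap. The log2 change was -1.12 ± 0.24, 0.461 of the vehicle level, and just missed the threshold (edgeR quasi-likelihood, adjusted p = 0.0588). Tamoxifen library 2 was nearest to the vehicle libraries, and without it the change was -1.44 and passed (adjusted p = 0.0133). The slow myosin gene Myh7 was at 61.0 CPM in vehicle library 3 and 9.97 CPM in tamoxifen library 3, the lowest of their groups. Without these 2 libraries the Itga4 change was -0.74 (adjusted p = 0.396), in a comparison chosen after the values were seen. Flrt1 was at 3.26, 3.65 and 3.68 CPM in the libraries titled as vehicle controls, whose treatment field names tamoxifen. In the tamoxifen group it was at 169, 280 and 265 CPM.

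In flox males Itga4 stood at 8.75, 7.29 and 6.67 CPM with vehicle and at 7.95, 7.17 and 10.5 CPM with tamoxifen. The groups overlapped, and the log2 change was 0.17 ± 0.24 (edgeR quasi-likelihood, adjusted p = 0.76). Flrt1 was nonetheless high in those tamoxifen libraries, at 206, 214 and 205 CPM against 1.67, 2.31 and 1.85 CPM with vehicle. In these males Flrt1 separated the treatments and Itga4 did not. With the 3 pairs other than the transgene females fitted together, the Itga4 log2 change was -0.56 ± 0.18 and did not pass (edgeR quasi-likelihood adjusted p = 0.0961), and it passed in 3 of 23 alternatives. With vehicle, Itga4 already differed between transgene and flox males by 0.59 ± 0.24, without overlap. With tamoxifen the genotypes differed by -0.70 ± 0.24, with overlap. Neither passed (edgeR quasi-likelihood, adjusted p = 0.237 and 0.12). Both enter the difference of responses. The response of Itga4 in transgene males differed from that in flox males by -1.29 ± 0.34 on the log2 scale, which did not pass over all genes (unadjusted p = 0.0024, adjusted p = 0.323). Only 2 of 15628 genes, 0.0128%, passed for that difference, and none of the 10 integrin genes did; at an unadjusted p under 0.05, where 8.25% of genes fell, Itga4 and Itga5 did (0.57 ± 0.26 for Itga5). DESeq2 also called none of the 10.

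**Figure D2:**
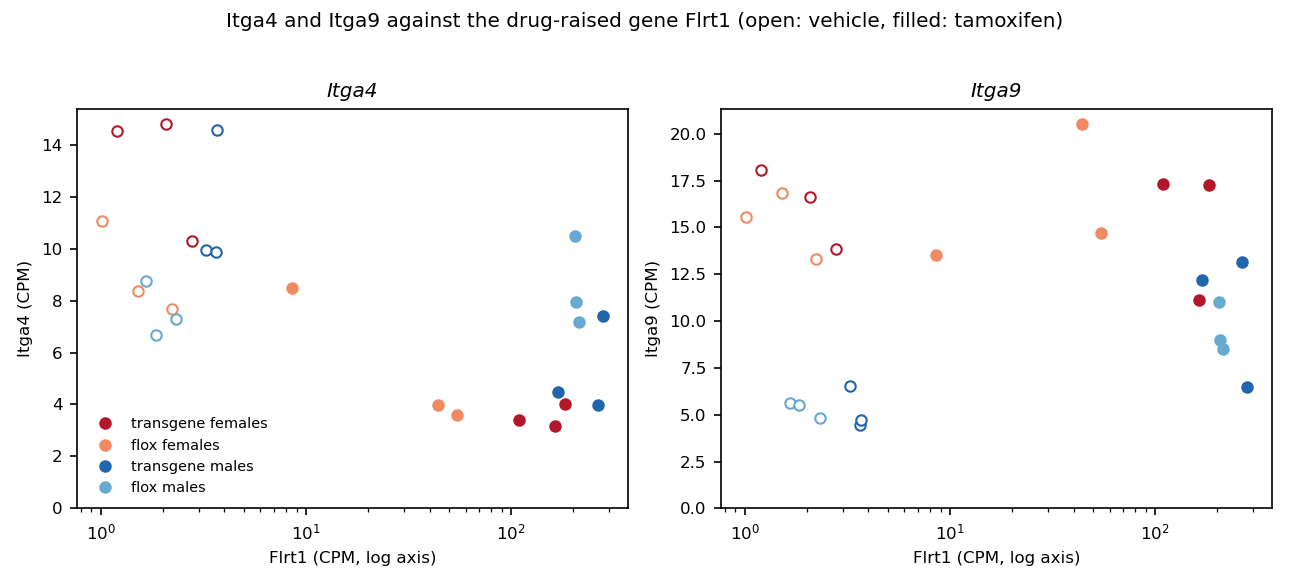
Itga4 and, in a second panel, Itga9 against Flrt1 in each of the 24 libraries, in CPM with only Flrt1 on a log axis, by group. The flox males with tamoxifen lie at 205 to 214 CPM of Flrt1 with Itga4 at 7.17 to 10.5 CPM, and flox female tamoxifen library 2 lies at 8.56 CPM of Flrt1 and 8.48 CPM of Itga4.

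Bulk RNA cannot tell apart fewer cells of a type and less RNA per cell. Of 13 marker lists for cell types of the muscle, none had sums that separated tamoxifen from vehicle in either female genotype. In transgene females 1 of 4 tested neutrophil and monocyte markers was called higher, where 1.32% of all genes were called. Of those 4 markers, 2 lay above 0 and 2 below. The slow fibre markers had 7 of 7 changes above 0 there (median log2 change 0.68), blood cell markers 5 of 5 (0.99) and tendon markers 7 of 8 (0.68). Smooth muscle and pericyte markers had 8 of 8 above 0 (0.09), adipocyte markers 5 of 5 (0.35) and Schwann cell markers 5 of 6 (0.41). Of the muscle fibre markers 7 of 8 lay below 0 (-0.23). The satellite cell markers, 8 genes including Pax7, summed to 116-119 CPM with vehicle and 112-126 CPM with tamoxifen in transgene females, and to 77.0-98.7 and 81.6-94.2 CPM in transgene males. The 8 T and B cell markers summed to 0.971-3.16 and 1.19-1.37 CPM in transgene females, where 1 of the 8 passed the filter and Cd8a was at 0 in the tamoxifen group, and to 4.28-8.03 and 2.66-9.28 CPM in transgene males. The 8 macrophage markers, another leukocyte list, summed to 22.5-54.5 and 28.3-31.6 CPM in transgene females, with 5 of 8 changes below 0 and a median log2 change of -0.28. In flox females they summed to 40.4-51.5 and 35.7-45.0 CPM, with 8 of 8 below 0 and a median of -0.27, and in transgene males to 36.5-87.9 and 44.1-77.9 CPM, with 4 of 8 below 0. No macrophage marker passed in any of these pairs. The part of these markers in the Itga4 values was not tested.

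In transgene males the summed fibroblast markers were higher with tamoxifen, at 535-543 against 343-512 CPM, with 8 of 8 changes above 0 and a median log2 change of 0.32. Other lists leaned to 1 side there although their sums overlapped. The tendon markers had 8 of 8 above 0 (median 0.74), the adipocyte markers 6 of 6 (median 1.06) and the slow fibre markers 0 of 7 (median -0.58). Blood cell markers had 5 of 5 above 0 (median 0.42) and smooth muscle and pericyte markers 7 of 8 (median 0.12). In flox males the summed satellite cell markers were lower with tamoxifen, at 79.4-88.6 against 88.7-104 CPM. Single markers did not lean to 1 side there, with 4 of 8 changes above 0, 4 below and a median of -0.01. No marker of these lists passed in its pair, and the part of these shifts in the results for males was not tested. With the 3 pairs other than the transgene females fitted together, 1 of 8 tendon and 1 of 6 adipocyte markers were called higher. Of all genes 4.98% were called there. Changes lay above 0 for 8 of 8 tendon (median 0.22) and 6 of 6 adipocyte markers (0.48), and below 0 for 6 of 8 macrophage markers (-0.15). The part of these markers in the changes over the 3 pairs was not tested.

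Itga9 rose with tamoxifen when the 3 pairs of groups other than the transgene females were fitted together. The log2 change over those 18 libraries was 0.65 ± 0.13, or 1.57-fold (edgeR quasi-likelihood, adjusted p = 0.00616), and it passed in each of 23 alternatives, at 0.57 to 0.73. The larger changes were in the 2 male pairs. In transgene males Itga9 was at 6.56, 4.45 and 4.72 CPM with vehicle and 12.2, 6.48 and 13.2 CPM with tamoxifen. Tamoxifen library 2, the one with the highest Itga4 of its group, was also the lowest here and lay just under vehicle library 1. The log2 change was 1.02 ± 0.23 (adjusted p = 0.0688, edgeR quasi-likelihood), and without tamoxifen library 2 it was 1.27 (adjusted p = 0.00853).

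In flox males Itga9 was at 5.605, 4.84 and 5.54 CPM with vehicle and 8.98, 8.52 and 11.02 CPM with tamoxifen. The groups did not overlap, and the log2 change was 0.84 ± 0.23 (edgeR quasi-likelihood, adjusted p = 0.0777). In flox females the levels were 15.5, 13.3 and 16.8 against 20.5, 13.6 and 14.7 CPM, with overlap and a change of 0.09 ± 0.16. Transgene females, outside the test, were at 18.1, 16.6 and 13.9 against 17.3, 17.3 and 11.1 CPM. The female libraries ran from 11.1 to 20.5 CPM and the male tamoxifen libraries from 6.48 to 13.2 CPM, in tables that were deposited separately, and whether the change differs by sex was not tested. Between transgene and flox males the responses differed by 0.18 ± 0.33 (edgeR quasi-likelihood, adjusted p = 0.924). Per kb, the ratio of Itga4 to Itga9 was 0.836-1.70 in vehicle transgene males and 0.167-0.628 with tamoxifen, and 0.662-0.859 and 0.463-0.524 in flox males.

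**Figure D3:**
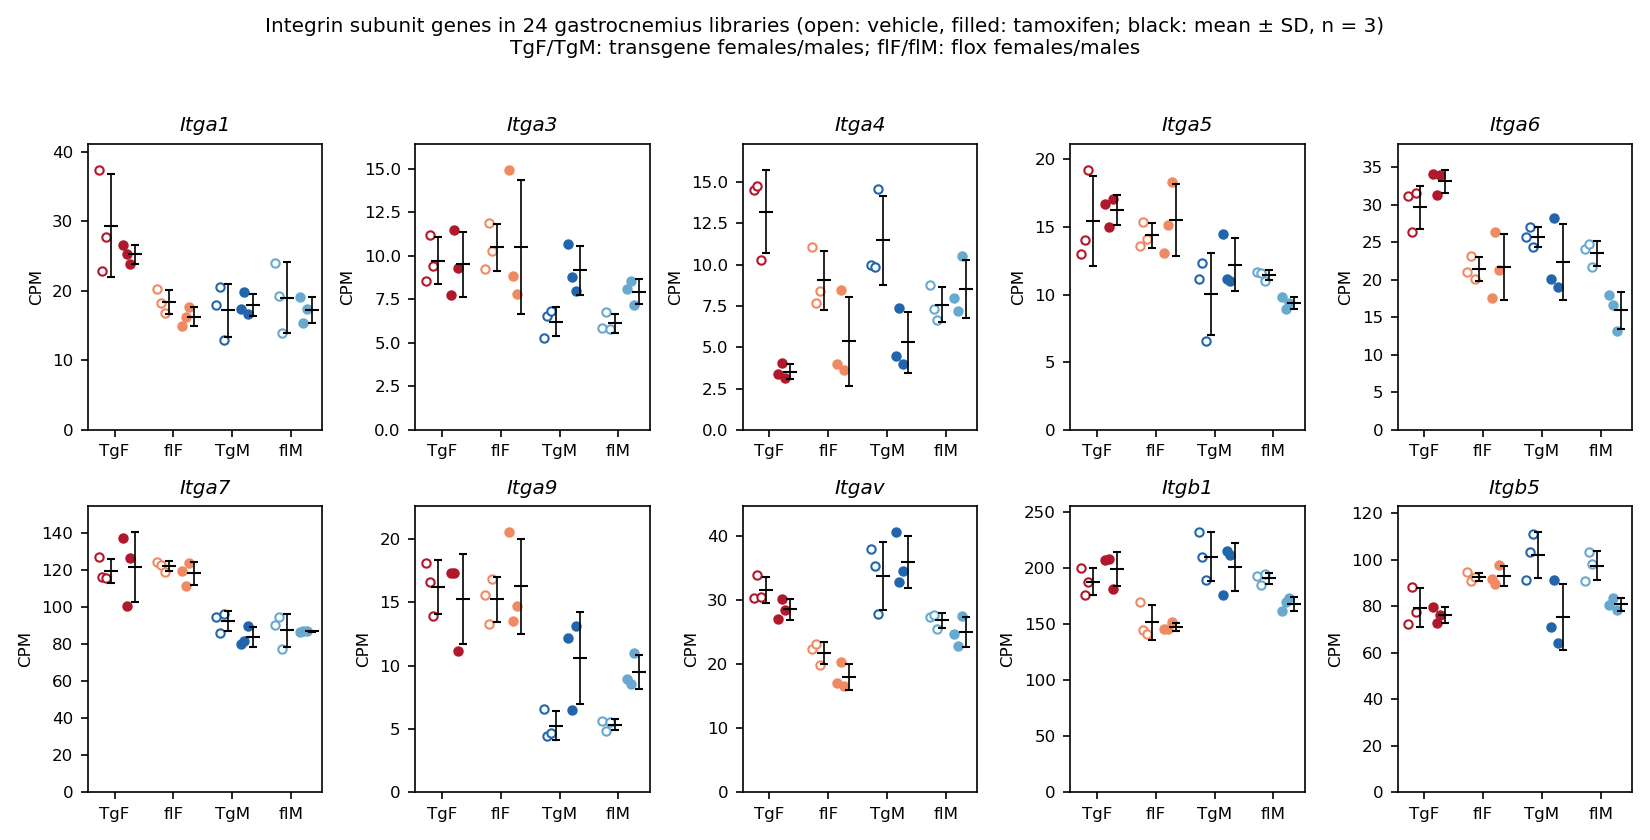
CPM of each of the 10 integrin genes in every library, by group, with points for libraries and bars for group means. Itga4 lies at 3.16 to 4.03 CPM in the tamoxifen transgene females against 10.3 to 14.8 CPM with vehicle, and Itga9 lies at 8.52 to 11.02 CPM in the tamoxifen flox males against 4.84 to 5.605 CPM.

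Itga5 (chr15:103344286-103366763, minus strand), the fibronectin receptor chain, showed no call. In flox males it was at 11.7, 11.6 and 10.997 CPM with vehicle and 9.81, 8.93 and 9.39 CPM with tamoxifen, without overlap and with a log2 change of -0.29 ± 0.18 (edgeR quasi-likelihood, adjusted p = 0.453). In transgene males the change was 0.28 ± 0.18, with 11.2, 12.3 and 6.60 CPM against 14.5, 11.1 and 11.03 CPM. Vehicle library 3 of that pair, the lowest of the 24 libraries for Itga5, is the one with low Myh7.

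The alpha chains of laminin receptors are Itga3 (chr11:95044474-95076801, minus strand), Itga6 (chr2:71745616-71858416, plus strand) and Itga7 (chr10:128933818-128958282, plus strand). Itga7 was the steadiest of them, with group means between 83.9 and 122 CPM and no change beyond 0.14 on the log2 scale in any of the 3 tested pairs. Itga3 was at 5.26, 6.55 and 6.80 CPM in vehicle transgene males and 10.7, 8.81 and 7.99 CPM with tamoxifen, and at 5.84, 6.77 and 5.77 against 8.07, 8.56 and 7.15 CPM in flox males. In both male pairs all tamoxifen libraries lay above all vehicle libraries. The log2 changes were 0.56 ± 0.15 (adjusted p = 0.116) and 0.37 ± 0.15 (adjusted p = 0.216, both edgeR quasi-likelihood), and neither passed.

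Itga6 was at 24.2, 24.8 and 21.7 CPM in vehicle flox males and 17.999, 16.7 and 13.2 CPM with tamoxifen. The groups did not overlap, and the log2 change was -0.56 ± 0.15 (edgeR quasi-likelihood, adjusted p = 0.0665). Without transgene tamoxifen male library 2, which enters the fit through the shared estimate of spread, it passed (adjusted p = 0.0232). In transgene males the levels overlapped, at 25.7, 27.1 and 24.4 against 20.1, 28.3 and 19.0 CPM.

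Itga1 (chr13:114953096-115101964, minus strand), a collagen receptor chain, overlapped between treatments in each pair of groups. Its lowest library, at 13.0 CPM, was vehicle library 3 of the transgene males, and its highest, at 37.4 CPM, was vehicle library 1 of the transgene females. Itgav (chr2:83724397-83806916, plus strand), which pairs with beta 1 and beta 5 to bind vitronectin and fibronectin, differed between the genotypes of tamoxifen-treated males and passed with treatment in no tested pair. It was at 40.6, 32.8 and 34.6 CPM in transgene males given tamoxifen and 24.7, 22.8 and 27.5 CPM in flox males given tamoxifen. All 3 transgene libraries were higher, by 0.52 ± 0.12 on the log2 scale (edgeR quasi-likelihood, adjusted p = 0.0226). The call was lost without transgene tamoxifen library 1 or 3 (adjusted p = 0.054 and 0.0571) or without flox tamoxifen library 1 or 2 (0.0723 and 0.0968). With vehicle the genotypes also did not overlap, at 38.1, 35.4 and 27.9 against 27.3, 27.7 and 25.6 CPM, and the difference of 0.32 ± 0.12 did not pass (adjusted p = 0.192). Both female pairs were lower with tamoxifen by mean, from 30.3, 33.96 and 30.6 to 27.0, 30.2 and 28.5 CPM in transgene females, without overlap, and from 22.4, 23.2 and 19.9 to 17.0, 20.3 and 16.7 CPM in flox females, with overlap. In flox females the log2 change was -0.28 ± 0.11 (edgeR quasi-likelihood, adjusted p = 0.51). Cell type markers also differed between male genotypes. With vehicle, 5 of 5 blood cell (median log2 difference -1.04), 5 of 6 adipocyte (-2.05) and 7 of 8 tendon markers (-1.19) were lower in transgene males. Of the muscle fibre markers 7 of 8 were higher (0.23). Also lower with vehicle were 7 of 7 slow fibre (-0.49), 8 of 8 macrophage (-0.36), 6 of 6 Schwann cell (-0.43) and 4 of 4 T and B cell markers (-1.02). Neutrophil and monocyte markers were higher in 4 of 5 (0.85). With tamoxifen 7 of 7 slow fibre (-1.11), 5 of 5 blood cell (-0.67) and 5 of 6 adipocyte markers (-0.66) were lower. Of the tendon markers 5 of 8 were then higher (0.15), and 1 of 8 was called, where 5.23% of all genes were. Their part in the genotype differences of any gene was not tested.

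Itgb1 (chr8:128685654-128733200) and Itgb5 (chr16:33829665-33949338), both on the plus strand, supply the beta chains. Itgb1 was at 193, 185 and 195 CPM in vehicle flox males and 161, 170 and 173 CPM with tamoxifen, without overlap, and its log2 change of -0.19 ± 0.10 missed the threshold (edgeR quasi-likelihood, adjusted p = 0.357). Itgb5 was at 91.5, 103 and 111 CPM in vehicle transgene males and 71.3, 91.3 and 64.0 CPM with tamoxifen. Tamoxifen library 2 came nearest to the vehicle libraries, at 91.3 against their lowest of 91.5 CPM. In flox males Itgb5 was at 90.7, 103 and 98.3 against 80.5, 83.7 and 78.4 CPM, also without overlap.

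Fitted over the 3 pairs, Itgb5 fell by 0.23 ± 0.06 on the log2 scale, to 0.854 of the vehicle level (edgeR quasi-likelihood, adjusted p = 0.0464). This call stands close to the threshold: it was lost in 15 of 18 fits that left out 1 library, and held without transgene vehicle male library 1, transgene tamoxifen male library 2 or flox vehicle male library 1. Without the 2 libraries lowest in Myh7 the change was -0.17 (adjusted p = 0.127). In flox females the Itgb5 levels overlapped, at 94.6, 90.8 and 92.4 against 91.5, 89.7 and 97.9 CPM.

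Transgene tamoxifen male library 2 was the highest of its group in Itga1 (19.8 CPM), Itga4 (7.40), Itga6 (28.3), Itgb1 (215) and Itgb5 (91.3 CPM), the lowest in Itga9 (6.48) and Itgav (32.8 CPM), and in the middle for the other 3 genes. Over all genes it was library 1 that stood apart in this group, where comparing counts by chi-square, divided by its degrees of freedom, gave 96.4 and 104 against libraries 2 and 3 and 17.3 between those. The Flrt1 level of library 2, 280 CPM, was the highest of all 24 libraries. Library 2 was singled out after its values were seen.

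Counted over the 10 genes, calls were few. In transgene females 1.32% of 14211 genes were called, Itga4 among them and none of the other 9. Since that contrast brought Itga4 onto the list, nothing is read from this. None was called in flox females (0.131% of 14539 genes), transgene males (0.889% of 15628) or flox males (2.89%), by edgeR quasi-likelihood at an adjusted p under 0.05. At an unadjusted p under 0.05 the counts were 1 of 10 (background 8.65%), 4 of 10 (10.1%) and 4 of 10 (17.5%). DESeq2 called 0, 3 and 2 of the 10 in those pairs, where it called 145, 328 and 871 genes in all. Between the genotypes of males, 0 of 10 differed with vehicle (background 0.947%) and 1 of 10, Itgav, with tamoxifen (5.23%); 2 and 4 of the 10 had an unadjusted p under 0.05, where 17.2% and 20.8% of all genes did. DESeq2 called none of the 10 between the vehicle genotypes. Over the 3 pairs together 2 of 10, Itga9 up and Itgb5 down, were called, where 4.98% of 16180 genes were.

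Groups did not overlap for 2 of the 10 genes in transgene females (22.4% of all genes tested) and 0 in flox females (14.2%). The counts were 3 in transgene males (13.8%) and 6 in flox males (28.0%). The 6 in flox males were Itga3 and Itga9, higher with tamoxifen (13.3% of all genes), and Itga5, Itga6, Itgb1 and Itgb5, lower (14.7%). Between male genotypes it was 2 with vehicle (23.0%), Itga4 and Itgav, and 4 with tamoxifen (27.6%), Itga5, Itga6, Itgav and Itgb1. All of these were higher in transgene males, a direction that 11.5% and 13.6% of all genes took without overlap. The median log2 change of the 10 genes was 0.00 in transgene males and -0.12 in flox males, beside medians of 0.01 and -0.01 over all genes. In flox females it was -0.02, beside 0.00. The median of the 10 genes was thus within 0.12 of the median of all genes in each pair.

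**Figure D4:**
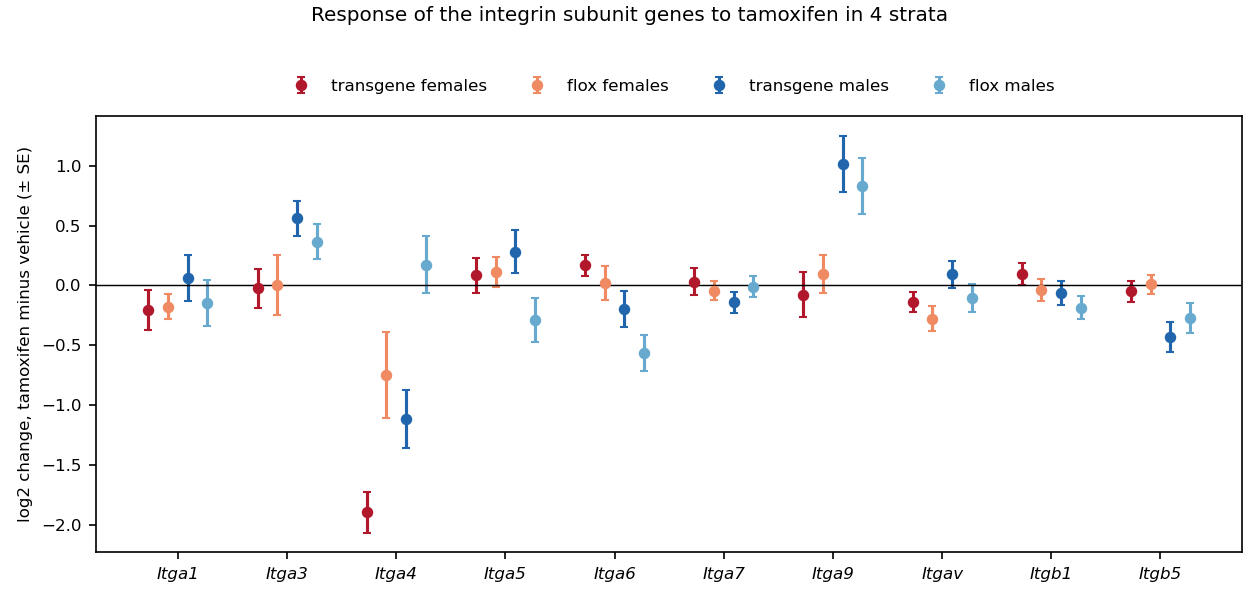
Log2 change of each of the 10 genes with tamoxifen, in each of the 4 pairs of groups, with standard errors. Itga4 shifts by -1.90 (transgene females, shown as a description), -0.75 (flox females), -1.12 (transgene males) and 0.17 (flox males), and Itga9 by 1.02 and 0.84 in the 2 male pairs.

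The other genes of the pathway were taken from 4 lists. Of 16 other integrin subunit genes, 13 could be tested in males. In flox males 1 of 13 was called with tamoxifen, where 2.89% of all genes were. This was Itgb6, an epithelial partner of alpha v. It fell by 1.397 ± 0.27 (edgeR quasi-likelihood, adjusted p = 0.0236), from 31.5 ± 2.89 to 12 ± 2.84 CPM (SD, n = 3 each). All 13 changes lay below 0 there, where 50.9% of all genes did, with a median of -0.37 beside -0.01 over all genes. Markers of several other cell types leaned the same way in flox males: 6 of 8 for macrophages (median -0.29, 3 at an unadjusted p under 0.05), 4 of 4 for T and B cells (-0.64) and 6 of 6 for Schwann cells (-0.22). The same held for 7 of 8 endothelial (-0.23), 7 of 8 tendon (-0.34) and 7 of 8 smooth muscle markers (-0.10), none of these passed over all genes, and their part in the integrin values was not tested. Among the 13, the leukocyte chain Itgb2, at -0.91 ± 0.39, did not pass (adjusted p = 0.25). In transgene males none of the 13 was called and the median was 0.09. The Itgb6 call was lost in 6 of 18 alternatives, among them each fit without 1 flox male library other than tamoxifen library 2. With tamoxifen Itgb6 was higher in transgene than in flox males, by 1.07 (edgeR quasi-likelihood, adjusted p = 0.0466), a call that held in 5 of 17 alternatives.

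Of 20 integrin ligand genes, 4 fell with tamoxifen in flox males and none rose, where 2.89% of all genes were called, with a median of -0.32 beside -0.01 over all genes. In transgene males none of the 20 was called, 14 lay above 0 and the median was 0.18 beside 0.01. Npnt, which encodes nephronectin, a matrix ligand of the integrin made of alpha 8 and beta 1, went from 26.3 ± 5.24 to 7.97 ± 1.43 CPM, a log2 change of -1.72 ± 0.23 (edgeR quasi-likelihood, adjusted p = 0.00305), and passed in 18 of 18 alternatives. Its receptor chain Itga8 was at 2.02 ± 0.994 and 1.93 ± 0.464 CPM in the same groups. Npnt was also lower in transgene than in flox males given vehicle, by -1.15 (adjusted p = 0.0385), a call lost without transgene vehicle library 1 or 3, transgene tamoxifen library 2, flox vehicle library 1 or 2 or flox tamoxifen library 1. Over the 3 pairs Npnt fell by 1.04 ± 0.12 (adjusted p = 5e-05) and passed in 23 of 23 alternatives.

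The other ligands that fell in flox males were the basement membrane genes Lamc1 (-0.42), Col4a2 (-0.75) and Col4a1 (-0.88). Their calls held in 12, 8 and 5 of 18 alternatives. Col4a1 in vehicle flox males ranged from 80.3 to 147 CPM. Of the Itga4 ligands, Vcam1 was at 1.71 to 4.72 CPM over all libraries, and neither Vcam1 nor Fn1 passed with tamoxifen in any tested pair. In transgene males given tamoxifen, Lamc1 was higher than in flox males by 0.48 (edgeR quasi-likelihood, adjusted p = 0.0153), held in 13 of 17 alternatives.

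Of 24 tested genes of integrin activation and adhesion, 1 was called with tamoxifen in flox males, where 2.89% of all genes were. This sole call was Tns1, encoding tensin 1, which links integrin tails to actin. It fell from 432 ± 54.6 to 292 ± 24.7 CPM, by 0.57 on the log2 scale (edgeR quasi-likelihood, adjusted p = 0.0183; lost without flox vehicle library 1 or 2 or flox tamoxifen library 1 or 3). Over the 3 pairs Tns1 fell by 0.45 ± 0.06 (adjusted p = 0.000208) and passed in 23 of 23 alternatives, with group means of 462 ± 59.0 and 358 ± 15.2 CPM in flox females and 427 ± 41.0 and 316 ± 24.6 CPM in transgene males. Vcl, the focal adhesion protein vinculin, was 0.47 higher in transgene than in flox males with tamoxifen (adjusted p = 0.0205), held in 13 of 17 alternatives. In transgene females 1 of 24 was called with tamoxifen, where 1.32% of all genes were. This was Tns2, another tensin gene, which rose by 0.53 ± 0.09 (edgeR quasi-likelihood, adjusted p = 0.0353) and passed in 5 of 10 alternatives.

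Of the integrin traffic genes, a list that holds Numb and Numbl, none of 25 was called with tamoxifen in either male pair. Over the 3 pairs 1 of 26 was called, where 4.98% of all genes were, so the share is near the background. Numbl rose by 0.42 ± 0.09 (edgeR quasi-likelihood, adjusted p = 0.0116), in 23 of 23 alternatives. Rab7, a late endosome GTPase, was 0.42 higher in transgene than in flox males with tamoxifen (adjusted p = 0.0414), held in 9 of 17 alternatives.

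Ranked by Spearman correlation over the 24 libraries, with each count table centred, the 5 genes whose levels followed Itga4 most closely among 11248 were Enpp4 (0.82), Arel1 (0.78), Exd2 (0.77), Gtf2a1 (0.77) and Rasd2 (0.76). These values are descriptions, over libraries that share groups, tables and depth. The libraries include the transgene females, in which Itga4 had been seen to fall, so nothing is supported by the ranking. Rasd2 went from 77.0 ± 13.1 to 22.4 ± 5.20 CPM in transgene females and from 71.4 ± 44.9 to 26.6 ± 8.89 CPM in transgene males. In flox females it went from 113 ± 64.8 to 58.4 ± 28.8 CPM and in flox males from 42.8 ± 19.3 to 52.4 ± 16.2 CPM. Exd2 went from 69.0 ± 5.63 to 46.0 ± 2.51 CPM in transgene females, from 58.2 ± 4.13 to 47.2 ± 3.41 in flox females, from 46.6 ± 2.96 to 40.8 ± 3.04 in transgene males and from 43.6 ± 9.73 to 42.3 ± 3.93 in flox males. Of the 5 genes 3 lie on chromosome 12, which holds 3.52% of the ranked genes and also Numb (chr12:83794034-83921934): Exd2 at chr12:80463095-80500227, Arel1 at chr12:84918148-84970900 and Gtf2a1 at chr12:91555262-91590487. Their places were noticed after their values were seen, in a ranking that holds the transgene females, and were not tested. Numb itself had a coefficient of 0.54, Numbl -0.41 and Flrt1 -0.57. The other 9 integrin genes lay between -0.44 for Itga5 and 0.30 for Itgav.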

How the data were processed

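The authors deposited unnormalized integer counts of reads per Ensembl gene in 3 tables, of transgene females, flox females and males. STAR, featureCounts, limma, GRCm38 and mm10 are named per the submitters' processing notes. No source used here gives strand setting, annotation release or treatment of reads mapping to several places, which could move counts where genes overlap. Symbols and exon lengths come from GENCODE M21 (54723 of 54752 IDs matched).

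The members and lists were chosen with earlier results of these data known. CPM were scaled by TMM over 24 libraries. Tests used edgeR 4.0.16 quasi-likelihood fits (R 4.3.3) within each table, males in 1 fit of 4 groups, after filterByExpr (minimum count 10), with Benjamini-Hochberg adjustment over all genes and a threshold of 0.05. The change over 3 pairs of groups was the exception, since its fit joined the 18 libraries of flox females and males. That fit gave each group its own mean. The tested change was the mean of the 3 differences between tamoxifen and vehicle, with equal weight for each pair. Text names every member and the genes of the 4 pathway lists past the threshold. Alternatives were DESeq2 1.42.0, its size factors, limma-voom 3.58.1, no filter, own libraries only and each library left out. Replicate pairs differed beyond sampling noise (chi-square per degree of freedom 8.34 to 104 over 24 pairs). The script was tested on simulated data.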

Additional observations from a re-analysis of the deposited data

How the results depend on the processing

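Over 488 alternatives to 27 results for integrin genes outside transgene females, 443 kept their direction and side of the threshold, 25 passed where the reported value had not, 20 no longer passed and 0 reversed. The cause of each difference below was not tested. The counts of genes called were as follows. In transgene females (187 reported) they were 941 without the filter, 679 by DESeq2 and 37 to 215 with 1 library left out. In flox females (19) they were 329, 145, 10 by limma-voom and 3 to 87, and in transgene males (139) 221, 328, 27 on the 6 libraries of that genotype and 68 to 151. In flox males (452) DESeq2 gave 871, those 6 libraries 917 and leaving out 1 library 143 to 644. For the difference of responses (2) the counts were 38 without the filter, 79 by DESeq2, 0 by limma-voom and 2 to 8 with 1 library left out. For genotype with vehicle (148) they were 327, 601 by DESeq2 and 44 to 204, and with tamoxifen (817) 1312 by DESeq2 and 280 to 997. Over the 3 pairs (806) they were 526 to 851 with 1 library left out.

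Without the 2 libraries lowest in Myh7, chosen after seeing the data, the counts were 45 in transgene males, 1 for the difference of responses, and 61 and 536 for genotype with vehicle and tamoxifen. Of the 10 integrin genes, no filter called 2 each in transgene males, flox males and the tamoxifen genotypes. In flox males its count over all genes lay within 143 to 917, the range over 18 alternatives. Over all genes it called 221 in transgene males and 854 between the tamoxifen genotypes. DESeq2 called 3, 2 and 2 of the 10 there, beside 328, 871 and 1312 of all genes. Of the 10, limma-voom called 1 in transgene males (133 of all genes) and the 6 libraries alone 2 in flox males (917). Leaving out 1 library gave 0 to 3, 0 to 2 and 0 to 2, and 1 to 4 over the 3 pairs, where leaving out the libraries lowest in Myh7 gave 1 and put Itgb5 at -0.17.

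For Itga4 in transgene males DESeq2 gave -1.12 (adjusted p = 0.00157), limma-voom -1.15 (0.045) and leaving out 1 library -1.44 to -0.90. Between genotypes with tamoxifen that range was -1.02 to -0.53. Over the 3 pairs it was -0.73 to -0.48, against -0.56 (adjusted p = 0.0961) as reported, and DESeq2 gave -0.56 (adjusted p = 0.0218). The 2 other alternatives of 23 that passed left out flox female tamoxifen library 2 (-0.73, 0.00708) or transgene tamoxifen male library 2 (-0.67, 0.0391), and without the libraries lowest in Myh7 it was -0.43 (0.247). In transgene females Itga4 ranged from -2.05 to -1.81 over 10 alternatives. Itgav between genotypes with tamoxifen ranged from 0.44 to 0.59, and Itgb5 over the 3 pairs from -0.29 to -0.20, with 1 library left out.

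Flox females share replicate numbers, but same-numbered libraries did not deviate together (correlations -0.198, -0.031 and -0.102 over 14539 genes). With the replicate block 15 genes and 0 of the 10 integrin genes were called. Itga4 was then at -0.84 (adjusted p = 0.671) and Itgav at -0.28 (0.552). Counts limit Itga4 (109 to 548 per library), Itga9 (118 to 710) and Itga3 (128 to 510).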
